A study of Rattus norvegicus with 18 samples.

Results

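Left ventricles of obese ZSF1 rats were compared with those of WKY rats, and the genes described here are those that this comparison held and that a comparison of the obese rats with their lean ZSF1 counterparts did not. Of the 5709 genes in the authors' deposited table for ZSF1 obese against WKY, 862 had an Ensembl identifier absent from the authors' deposited table for ZSF1 obese against ZSF1 lean, which is 15.1% of the list. The remaining 4847 genes were in both. The members were found by matching identifiers, and the size of a change against WKY played no part beyond the limits that the authors set for their lists.

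The series holds polyadenylated RNA of 18 male rats, 6 in each of 3 groups labelled WKY, ZSF1 lean and ZSF1 obese. WKY (Wistar Kyoto) is a normotensive inbred strain that served as the control, ZSF1 lean rats stood for hypertension, and ZSF1 obese rats stood for hypertension with metabolic syndrome, the group meant to model HFpEF, heart failure in which the ejection fraction is preserved. No group received a drug or carried an engineered allele according to the labels, and age and diet are not stated there. As background, ZSF1 rats are first-generation hybrids of the Zucker diabetic fatty and the spontaneously hypertensive heart failure strains, and the obese animals inherit a defective leptin receptor allele from each parent line, whereas lean animals keep a working copy. Obese and lean ZSF1 rats therefore share a hybrid background that WKY rats lack, so that in the comparison with WKY the strain, the blood pressure and the metabolic state differ together and cannot be told apart. A whole ventricle contains myocytes, fibroblasts, vessels and leukocytes, so fewer cells of a type and less RNA per cell cannot be told apart either.

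Each deposited row gives a fold, the level in the first group divided by that in the second, and a false discovery rate, here called the adjusted p. Listed genes had a fold of 2 or above, or 0.5 or below, and an adjusted p under 0.05, and these are taken here as the authors' limits. In the list of lean against WKY the adjusted p values ended lower, at 0.000347. Values per rat, mean levels and standard errors were not used here, so the adjusted p of a 6 against 6 comparison is the single measure of error for each gene, sequencing depth is unknown, and nothing below was tested again. A gene absent from a list may have missed either limit or may not have been measured, and its value in that comparison is not known. The number of genes tested by the authors is not stated either. Of the 23154 protein-coding symbols in RefSeq's rat annotation, the table of obese against WKY listed 12.4% as higher and 10.8% as lower, and the table of lean against WKY listed 0.898%. Lepr, the leptin receptor gene, was in none of the 3 tables, so the labels could not be checked against it.

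Genes that the comparison with WKY added were mostly higher in the obese heart. The authors' deposited table listed 552 of the 862 genes (64%) as higher than in WKY and 310 as lower, beside 52.2% higher among the 4847 genes of both obese lists. In the whole list against WKY, 54% of genes were higher and 46% lower. Their changes were smaller than those of the shared genes. The median fold of the added genes was 2.46 where higher and 0.45 where lower, and that of the shared genes 3.18 and 0.293. Most lay close to the limit that admits a gene to a list: 515 of the 862 (59.7%) had folds from 0.4 to 2.5, against 1053 of the shared genes (21.7%). An adjusted p over 0.01 was found for 121 of the added genes (14%) and for 152 of the shared genes (3.14%).

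**Figure D1:**
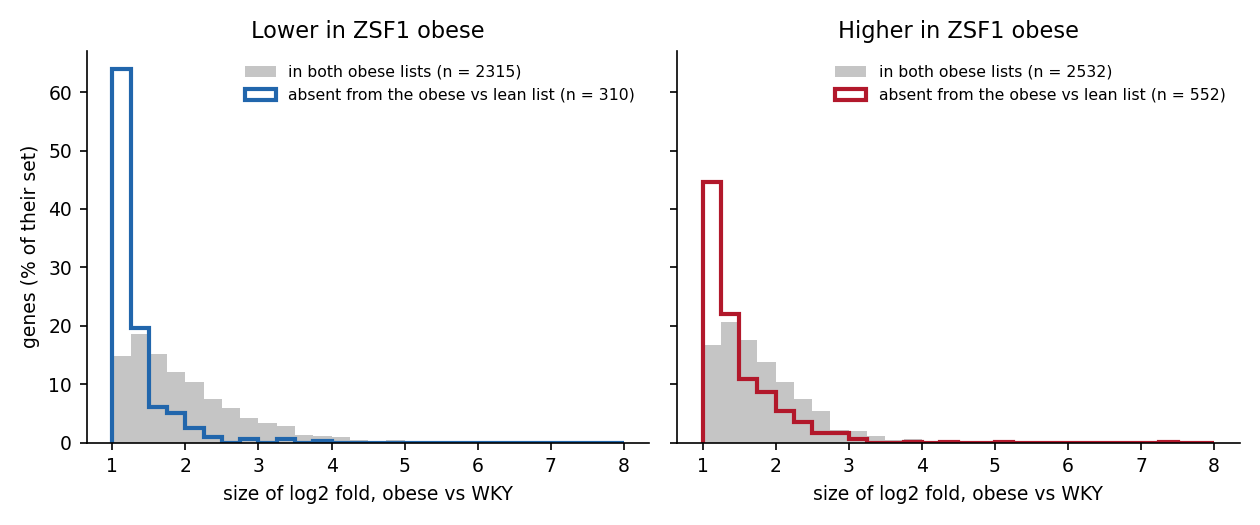
Size of the log2 fold of ZSF1 obese against WKY (x axis) as the percentage of genes of a set (y axis), for genes lower (left) and higher (right) in obese hearts. Outlines are the 310 and 552 genes absent from the list of obese against lean, grey areas the 2315 and 2532 genes of both lists, and the outlines are crowded next to the 2-fold limit at a log2 of 1.

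The position of the limit bears on what absence means. In the authors' deposited tables, 23 shared genes sat exactly at the limit against lean rats, 8 with a fold of 2 and 15 with a fold of 0.5. Against WKY, those just inside had median folds of 2.42 where higher and 0.441 where lower, close to the medians of the added genes. At the other edge, 31 of the 862 genes had a fold against WKY of exactly 2 (12 genes) or 0.5 (19 genes). Added genes with folds near 2 may thus differ little from shared ones, and a group of such genes is described below without reading a difference between the reference groups into it.

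A smaller number of added genes lay far from the limit. The authors' deposited table held 92 changed by 4-fold or more in either direction, of which 76 were higher and 16 lower. The greatest rise was that of Ifit1, an interferon-induced RNA-binding protein, at 179.8-fold (adjusted p = 3.83e-72). With predicted and clone names left out, the next in the authors' deposited table was Klk10, a secreted serine protease of the kallikrein family, at 32-fold (adjusted p = 4.46e-22). After it came Map3k7, the kinase TAK1 of the TGF-beta and inflammatory pathways, at 14.3-fold (adjusted p = 5.15e-33). Enzymes and lipid carriers came next. The authors' deposited table gave 8.75-fold for Apoc3, an apolipoprotein of triglyceride-rich particles, 8.57-fold for Tdh, threonine dehydrogenase, and 8-fold for Inmt, an indolethylamine N-methyltransferase. Also among the 12 greatest rises of such named genes in the authors' deposited table were the Bcl-2 relative Bcl2l15 (8.69-fold) and the natural killer receptor gene Ly49s7 (7.95-fold). Mlph (7.46-fold), Armh4 (7.46-fold) and the actin-binding Pof1b (7.41-fold) were others there.

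Falls of that size were fewer. Rps9, a protein of the small ribosomal subunit, was at 0.072 of the WKY level in the authors' deposited table (adjusted p = 5.43e-34). A pair of mitochondrial genes followed there, Mff, the receptor that recruits the fission machinery to the outer membrane, at 0.101 (adjusted p = 0.00104), and Slc25a22, a glutamate carrier of the inner membrane, at 0.127 (adjusted p = 4.67e-07). The splicing factor gene Wbp11 was at 0.105 in the authors' deposited table, and Slc27a2, an acyl-CoA synthetase for very long fatty acids, at 0.243 with an adjusted p of 0.0171. Other large falls of named genes in the authors' deposited table were Egfl6, a secreted protein with EGF repeats (0.141), and Calcoco1, an autophagy receptor (0.191). Further ones there were Tom1l1, a protein of endosomal sorting (0.196), Qrich2 (0.2), Ccdc68 (0.216), the nucleoside transporter Slc28a3 (0.225) and the centriole gene Cep128 (0.243).

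Small adjusted p values accompanied moderate folds. Among the lowest for falls in the authors' deposited table were the kinase Cdk16 at 0.493 (adjusted p = 1.35e-57), the thioredoxin reductase Txnrd1 at 0.49 (4.12e-54), the adhesion adaptor Fblim1 at 0.409 (4.34e-54) and the transcription factor Mef2a at 0.438 (3.48e-52). The next were Ppp3cc, a catalytic subunit of calcineurin, at 0.395, Naa40 at 0.42 and the phosphatase Ptpn4 at 0.441, all with adjusted p at or under 1.74e-41 in the authors' deposited table. For rises, the authors' deposited table gave Phlda3, a p53-induced inhibitor of Akt, at 4.03-fold (1.47e-45), Cmtm6, a membrane protein that stabilises PD-L1, at 2.5-fold (8.51e-45) and P3h4, part of a complex that modifies collagen in the endoplasmic reticulum, at 3.2-fold (5.26e-37). For these genes the difference from WKY was large beside its estimated error, although most of the folds were near the 2-fold limit. The spread between rats was not seen here.

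A subset of the added genes was also listed for lean ZSF1 rats against WKY. The authors' deposited table for that comparison, with 233 genes in all, held 79 of the 4847 genes of both obese lists. It held 73 of the 862 added genes (8.47%), of which 52 were higher and 21 lower in obese hearts. The 2 comparisons use the same 6 WKY rats, so a shared direction is no independent evidence. These genes were further from 1 than the rest: their median fold in obese against WKY was 4.26 where higher and 0.285 where lower, and in lean against WKY 2.34 and 0.41. Among the 92 genes changed by 4-fold or more, 36 belonged to them.

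Folds of the lean table cannot be set directly against those of the obese tables. For the 79 genes present in all 3 tables, the fold against WKY divided by the fold against lean should give the fold of lean against WKY if all were on a single scale. On the log2 scale that quotient was larger than the deposited lean value in 79 of 79 genes, by a median factor of 1.26 (range 1.01 to 2.46). Adjusted p values in the lean table ended at 0.000347, while those of the 862 genes reached 0.0499. The lean folds are thus closer to 1 than the other tables imply, and the cause was not tested. The ratio of an obese to a lean fold would overstate the difference between these groups where the obese fold is the further from 1. It would understate that difference where the lean fold is the further from 1.

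Ifit1 had the greatest quotient. Its fold was 179.8 in obese and 15.14 in lean rats against WKY in the authors' deposited tables, an 11.9-fold quotient, and yet it was absent from the table of obese against lean. Of the 73 genes, 21 had a quotient of 2 or more and 2 a quotient of 0.5 or less. Klk10 was at 32-fold in obese and 3.92-fold in lean rats in the authors' deposited tables and Map3k7 at 14.3 and 5.46. The corresponding pair was 4.69 and 3.16 for the telomere helicase gene Rtel1, 4.72 and 2.28 for the endothelial gene Apold1, 4.44 and 2.46 for sphingosine kinase Sphk1, 4.03 and 2.04 for Phlda3, and 2.89 and 2.35 for Arhgef5, all from the authors' deposited tables. Genes lower in both ZSF1 groups included Egfl6, at 0.141 in obese and 0.19 in lean rats, Cep128 at 0.243 and 0.46, and the RNA-binding Rc3h2 at 0.42 and 0.48 in the authors' deposited tables.

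In 10 of the 73 genes the lean fold was the further from 1. The authors' deposited tables gave Ace, the angiotensin-converting enzyme gene, 3.92-fold in obese and 5.43-fold in lean rats. Trim16, an E3 ligase of the tripartite motif family, was at 6.02 and 7.36, and Fbp2, the muscle fructose bisphosphatase, at 5.94 and 6.87 in the same tables. Cyb561, the gene next to Ace in RefSeq's gene order, was at 2.85-fold in obese and 2.17-fold in lean rats in the authors' deposited tables.

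**Figure D2:**
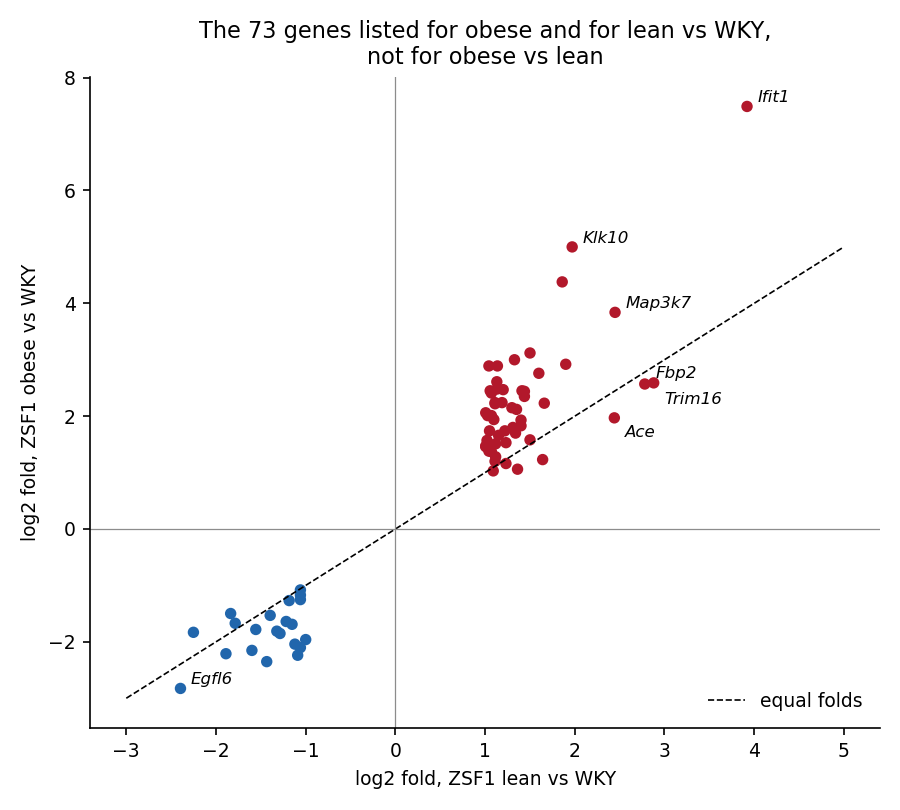
Log2 folds of the 73 genes listed against WKY for lean (x axis) and for obese ZSF1 rats (y axis) and absent from the list of obese against lean, red where higher and blue where lower than in WKY, with a dashed line of equal folds. Ifit1 and Klk10 lie far above the line, and Ace, Trim16 and Fbp2 lie below it; the 2 axes share the WKY rats and are not on quite the same scale.

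The other 789 genes were listed against WKY for the obese rats and in neither of the other tables. Of these, 500 were higher and 289 lower. Absence from the lean table does not show that lean rats matched WKY, since the adjusted p values there ended at 0.000347. If the 2 steps from WKY to lean and from lean to obese were each within 2-fold on a single scale, their product would stay within 4-fold. Beyond that lay 54 of the 789 in the authors' deposited table, 46 higher and 8 lower, with an adjusted p over 0.01 in 12 of them. Rps9, Apoc3, Mff and Slc25a22 are examples. For such genes a step may have passed 2-fold and missed the limit on the adjusted p, the gene may not have been measured in a comparison, or the tables may not be on a single scale, and these cannot be told apart here.

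By function, the added genes were spread over many processes. The left ventricle meets its energy demand mainly by oxidising fatty acids in mitochondria. In HFpEF, stiffening by matrix deposition, inflammation of small vessels and altered substrate use are the features most often described. To place the members, 28 lists of genes for cardiac processes and 14 lists of cell type markers were used, and 92 of the 862 genes were in at least 1 of the 28. Against the overall 15.1% of absent genes, the share was higher in 8 of the 28 lists and lower in 20, and 5 lists held no added gene. No share was tested, and the counts are small.

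**Figure D3:**
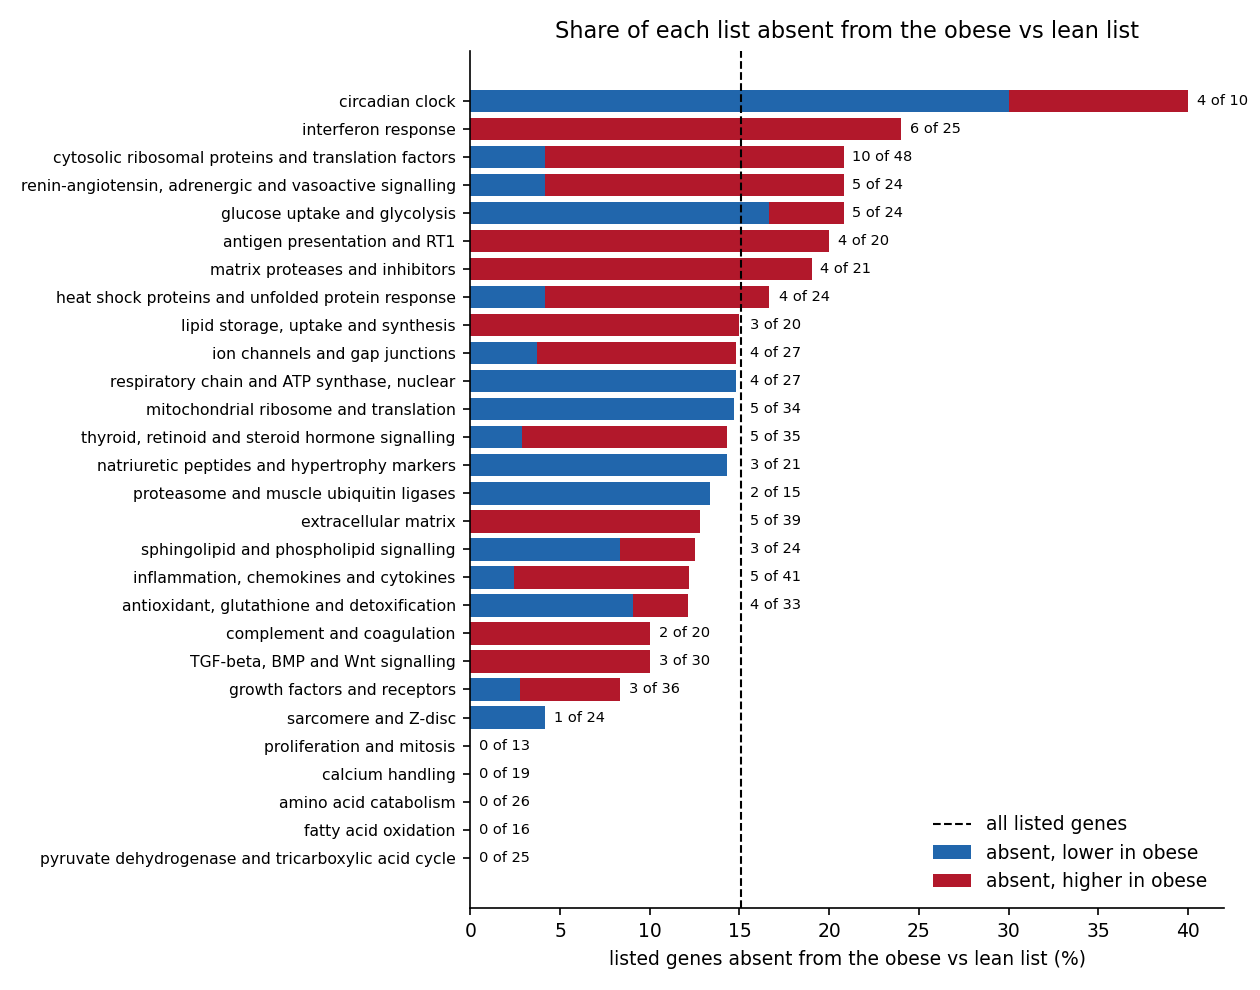
Percentage of the genes of each of the 28 lists for cardiac processes in the table of ZSF1 obese against WKY that were absent from the table of obese against lean (x axis), split into genes lower (blue) and higher (red) in obese hearts, with the counts beside each bar and a dashed line at 15.1%. Among these 28 the circadian clock has the greatest share, 4 of 10 genes, and 5 lists of energy metabolism, calcium handling and proliferation hold none.

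Central energy metabolism was not where WKY added genes. All 25 listed genes of pyruvate dehydrogenase and the tricarboxylic acid cycle were lower than in WKY (median fold 0.158), as were 16 listed genes of fatty acid oxidation (median 0.191), and each of them was also in the table against lean rats. Of the 26 listed genes of amino acid catabolism, 24 were lower, and none was added. The authors' deposited table did add 4 of the 27 listed genes of the respiratory chain and ATP synthase, 14.8%, and all were near the limit. They were Slc25a5, an ADP/ATP carrier, at 0.5 (adjusted p = 1.54e-25), Atp5f1d, the delta subunit of ATP synthase, at 0.493, Sdhb, the iron-sulphur subunit of succinate dehydrogenase, at 0.486, and Cox7b of cytochrome oxidase at 0.48 in the authors' deposited table. The mitochondrial ribosome list had 5 added genes of 34 (14.7%). Their folds in the authors' deposited table were 0.463 for Mrps9, 0.46 for Mrps14, 0.473 for Mrps15, 0.493 for Mrpl43 and 0.497 for Mrps7. Both shares were close to the overall share, so for oxidative phosphorylation and its ribosome the comparison with WKY added a few genes near the limit. The listed genes of both groups were all lower, 27 of 27 and 34 of 34, while the lists hold 77 and 89 genes found by symbol, most of which were not listed. Beside them, 7 of the 12 cardiomyocyte markers were listed, all lower than in WKY (median fold 0.287), and their part in these falls was not tested.

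For glucose uptake and glycolysis, 5 of the 24 listed genes were added (20.8%, beside 15.1% overall). Slc2a1, the GLUT1 transporter of basal glucose uptake, was at 0.409 in the authors' deposited table (adjusted p = 5.73e-19). Glycolytic enzymes were lower by a similar amount there: glyceraldehyde phosphate dehydrogenase, Gapdh, at 0.429 (8.34e-07), aldolase Aldoa at 0.49 (1.24e-06) and glucose phosphate isomerase Gpi at 0.5 (8.49e-16). Gapdh is often used as a reference gene in expression assays, and it has many near-identical copies, which makes its own count uncertain. Pfkfb1, an enzyme that makes the phosphofructokinase activator fructose 2,6-bisphosphate, went the other way at 3.48-fold in obese and 2.48-fold in lean rats in the authors' deposited tables. In the whole list, 20 genes were lower and 4 higher.

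Among lipid genes all 3 added genes (15% of the 20 listed) were higher, although 14 of the 20 listed were lower. Fasn, fatty acid synthase, was at 2.62-fold (adjusted p = 9.77e-10), Lpin2, a phosphatidate phosphatase, at 2.07-fold and the elongase Elovl5 at 2.03-fold in the authors' deposited table. Signalling lipids were mixed. Sphk1 was higher, whereas the phospholipases Pla2g7 and Pla2g4a were at 0.426 and 0.454 of the WKY level in the authors' deposited table.

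In the contractile apparatus the only added gene among 24 listed was Acta1, skeletal alpha-actin, a fetal isoform that usually rises in pressure overload. The authors' deposited table had it lower, at 0.398 (adjusted p = 0.00564). Neither Nppa nor Myh7, the other common markers of the fetal programme, was in any of the 3 tables. Nppb, the gene of the natriuretic peptide BNP, was at 0.297 against WKY and 0.48 against lean in the authors' deposited tables, and Myh6, the adult alpha-myosin, at 0.195 and 0.187. Upstream, Mef2a, which drives muscle gene transcription, and Hdac9, a class IIa deacetylase that represses MEF2 factors, were both lower in the authors' deposited table, at 0.438 and 0.366. No calcium-handling gene was added, with 16 of the 19 listed lower. Ion channels contributed 4 of 27 listed genes (14.8%, beside 15.1% of all listed genes), 3 of them higher, although 21 of the 27 were lower. The potassium channel gene Kcna5 was at 2.45-fold, the cation channel Trpm4 at 2-fold and the connexin Gjc1 at 2.03-fold. Kcna4, a transient outward potassium channel, was at 0.493 in the authors' deposited table. Channel genes outside that list of 40 were also added, and they were not counted. Examples in the authors' deposited tables were Kcne2, at 7.41-fold in obese and 2.2-fold in lean rats, and Kcnma1, at 4.6-fold in obese rats. Scnn1a was lower there, at 0.473 in obese and 0.48 in lean rats.

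Vasoactive genes were among the additions, 5 of 24 listed (20.8%). The renin-angiotensin system raises blood pressure through angiotensin II, which Ace produces and the type 1 receptor, encoded by Agtr1a, detects. In the authors' deposited table Ace was 3.92-fold (adjusted p = 5.55e-24) and Agtr1a 2.3-fold (6.09e-08) higher in obese than in WKY hearts, and neither was listed for obese against lean. Agt, the precursor of angiotensin, was in none of the 3 tables. Ptger3, a prostaglandin E2 receptor, was at 2.45-fold and the cyclic nucleotide phosphodiesterase Pde2a at 2.04-fold in the authors' deposited table. The endothelin receptor gene Ednra was lower, at 0.497 (adjusted p = 1.01e-17). Of these 5 genes, Ace was the one also listed for lean rats.

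Matrix genes showed a uniform direction, since all 39 listed were higher than in WKY (median 3.92-fold). The comparison with WKY added 5 of them (12.8%). Col18a1, a basement membrane collagen and source of endostatin, was at 3.76-fold (adjusted p = 7.85e-36) in the authors' deposited table. Decorin, Dcn, a small proteoglycan that binds collagen fibrils, was at 2.14-fold (4.82e-06) and Thbs2, a matricellular thrombospondin, at 2.24-fold (0.000727) there. Fibrillar collagens had an adjusted p nearer the limit: the authors' deposited table gave Col1a2 4.44-fold with an adjusted p of 0.0291 and Col11a1 2.83-fold with 0.0293. In the list of matrix proteases and their inhibitors, 17 of the 21 listed genes were higher, 4 were lower, and 19% were added. Adamts8 (3.36-fold), Timp4, an inhibitor of metalloproteinases (2.87-fold), Adamts15 (2.11-fold) and the protease inhibitor Serpine2 (2.09-fold) were the 4 added genes in the authors' deposited table. Smad7, an inhibitor of TGF-beta signalling, was at 2.22-fold (adjusted p = 1.36e-19), and the BMP antagonists Chrd and Chrdl1 were at 2.28-fold and 2.1-fold there. Beside these, 8 of the 12 fibroblast markers were listed, all higher (median 3.15-fold). Dcn and Col1a2 are themselves among those markers, and the part of fibroblast number in the matrix genes was not tested.

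Growth factors added 3 of 36 listed genes (8.33%, beside 15.1% of all listed genes). The authors' deposited table had Nrg4, an ErbB4 ligand, at 5.28-fold with an adjusted p of 0.00504, and the receptor Fgfr3 at 2.59-fold (2.93e-07). Fgf18 was lower, at 0.321 in obese and 0.43 in lean rats against WKY in the authors' deposited tables.

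**Figure D4:**
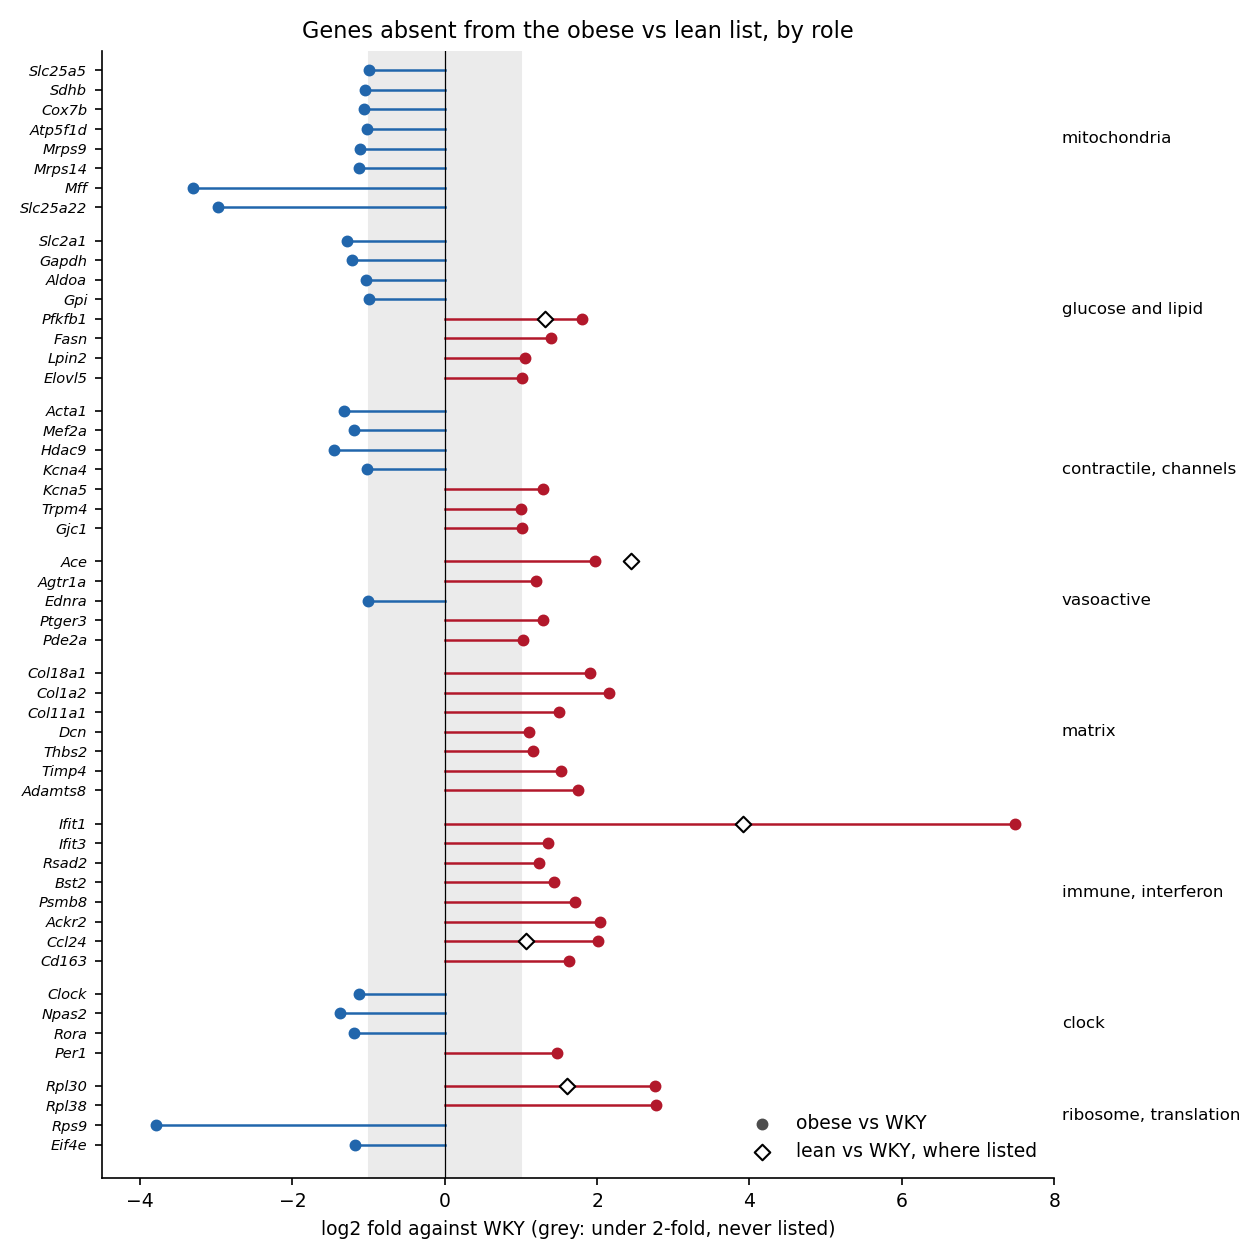
Log2 fold against WKY (x axis) of genes absent from the list of obese against lean, grouped by role; circles are obese rats, open diamonds lean rats where listed, and the grey band marks changes under 2-fold. The genes shown are a selection of the added genes. Among them, mitochondrial genes and most glycolytic and clock genes lie to the left and matrix and immune genes to the right. The added chemokine gene Ccl20, lower at 0.325, is not shown. Many circles sit next to the band, and Ifit1, Rps9, Mff and Slc25a22 lie far from it.

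Immune genes were almost all on the higher side. Interferons induce a set of antiviral genes whose promoters commonly carry a response element (ISRE) with the core GAAANNGAA, where N is any base. The table against WKY listed 25 genes of the interferon list, 23 of them higher, and 6 were absent from the table against lean (24%), all higher. After Ifit1 came Psmb8, a subunit of the immunoproteasome, at 3.27-fold (adjusted p = 1.08e-22), and Bst2, the tetherin that holds budding virions, at 2.69-fold (1.07e-14) in the authors' deposited table. Ifit3, a partner of Ifit1, was at 2.57-fold (6.99e-06), Rsad2, viperin, at 2.36-fold (1.79e-11) and Ifi35 at 2.16-fold (1.02e-11) there. Ifit1 stood far apart from these relatives in the size of its fold, and it alone of the 6 was listed for lean rats.

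Promoter sequence was examined for these 6 genes to see whether they share the core. RefSeq's promoter table for the build GRCr8, with 250 bases before and 50 after each start, had entries for 5 of them, all but Ifit1, and 4 of the 5 held the core on either strand. The stretches with the match are shown with up to 60 bases on each side, 5′ to 3′ on the strand of the gene, and capitals mark the 9 bases of the core or its reverse complement. Matches begin 43 and 24 bases before the start of Ifit3, 146 before Rsad2, 3 before Psmb8, and 131 and 125 before Bst2, where the 2 overlap.
Ifit3 (GRCr8, chr1:241527223-241527370, + strand): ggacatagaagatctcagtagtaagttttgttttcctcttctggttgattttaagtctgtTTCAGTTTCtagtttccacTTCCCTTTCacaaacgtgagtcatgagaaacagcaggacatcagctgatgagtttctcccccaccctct
Rsad2 (GRCr8, chr6:48788198-48788326, - strand): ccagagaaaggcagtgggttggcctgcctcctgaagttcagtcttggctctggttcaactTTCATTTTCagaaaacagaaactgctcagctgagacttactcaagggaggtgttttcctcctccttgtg
Bst2 (GRCr8, chr16:18255024-18255158, - strand): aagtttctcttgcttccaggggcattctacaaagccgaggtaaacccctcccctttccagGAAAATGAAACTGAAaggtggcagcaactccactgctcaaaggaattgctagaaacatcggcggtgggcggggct
Psmb8 (GRCr8, chr20:4656982-4657094, - strand): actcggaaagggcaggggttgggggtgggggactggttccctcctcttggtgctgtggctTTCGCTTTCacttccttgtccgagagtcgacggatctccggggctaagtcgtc
The core lies on the opposite strand in Ifit3, Rsad2 and Psmb8 and on the gene's own strand in Bst2, and the Ifi35 window had no match. As a measure of how common the letters are, 10.3% of 27457 symbols with a promoter in the table held the core, and 35 of 52 symbols of the whole interferon list (67.3%). Among added genes the share was 8.4% of 393 that were higher and 5.15% of 233 that were lower, and among genes of both obese lists 8.05% of 3679. The core was therefore no more common in the added genes at large than in rat promoters. A match is a description of the reference letters and not a measured binding site.

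Antigen presentation added 4 of 20 listed genes (20%), all higher. Besides Psmb8 they were Tap2, a subunit of the peptide transporter, at 2.45-fold with an adjusted p of 0.0288, the class I gene RT1-T24-1 at 2.16-fold (1.42e-09) and a row named RT1-S2 at 2.95-fold (0.0188) in the authors' deposited table. A second row with the symbol RT1-S2 was in all 3 tables, at 50.2-fold against WKY. RT1, the rat major histocompatibility complex, consists of near-identical genes, so values of single members are uncertain.

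Chemokine and complement genes were added at shares under the 15.1% of all listed genes. Ccl24, an eosinophil attractant, was at 4.03-fold in obese and 2.1-fold in lean rats against WKY in the authors' deposited tables. The decoy receptor gene Ackr2 was at 4.11-fold (adjusted p = 4.56e-08), the T cell receptor for interferon-induced chemokines, Cxcr3, at 2.51-fold and Cxcl14 at 2.48-fold in the authors' deposited table, and Ccl20 was lower at 0.325 with an adjusted p of 0.0396. These were 5 of the 41 listed genes of that list (12.2%). In the complement and coagulation list, 2 of 20 listed genes were added (10%). Serping1, the C1 inhibitor, was among them, at 2.16-fold in obese rats in the authors' deposited table. Leukocyte markers moved in the same direction. All 10 listed macrophage markers were higher (median 4.26-fold), with Cd163, a scavenger receptor for haemoglobin, as the added member at 3.1-fold (adjusted p = 2.17e-10). All 7 listed lymphocyte markers were higher, and Cd3e, part of the T cell receptor complex, was added in the authors' deposited table at 2.28-fold with an adjusted p of 0.0206. The part of leukocyte number in the immune genes was not tested.

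Of the 28 lists for cardiac processes, the circadian clock had the greatest share of added genes, 4 of 10 listed (40%). In this feedback loop CLOCK or its relative NPAS2 pairs with BMAL1, the product of Arntl, to drive transcription of the Per genes, whose proteins then block the pair, while ROR receptors drive Arntl. In the authors' deposited table Clock was at 0.46 of the WKY level (adjusted p = 2.91e-32), Npas2 at 0.387 (6.73e-07) and Rora at 0.438 (3.19e-06). Per1 was higher, at 2.79-fold (0.000771). Of the 10 listed clock genes, 6 were lower and 4 higher, and not all are named here. Among the 4 added genes, the drivers Clock, Npas2 and Rora were lower and the repressor Per1 was higher. Their partners were in both obese tables: against WKY the authors' deposited table gave Arntl 0.235, Per2 3.25-fold and Per3 3.61-fold. The time of day at which each group was sampled is not stated in the labels, and it cannot be told apart from the groups.

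Translation genes contributed 10 of the 48 listed (20.8%), 8 higher and 2 lower, in a list where 43 were higher. Most were small changes. The authors' deposited table gave Rps21 2.48-fold, Eef1b2 2.16-fold, Rps10 2.09-fold, Rps3 2.07-fold and Rps14 2-fold. Some were not. Rpl38 was at 6.82-fold (adjusted p = 0.000162) and Rpl30 at 6.77-fold in obese and 3.03-fold in lean rats in the authors' deposited tables, while Rps9 was at 0.072. Eif4e, the protein that binds the messenger RNA cap, was lower in the authors' deposited table, at 0.441 (adjusted p = 4.08e-22). The symbols Rpl30 and Rps29 each stood on 2 identifiers. The other Rpl30 identifier was listed against lean at 2.28-fold and not against WKY, and the other Rps29 identifier was listed against both, at 2.1-fold and 2.81-fold, beside 3.01-fold for the added row in the authors' deposited tables. Ribosomal protein genes have many near-identical copies in the genome, so the rows for Rps9, Rpl30, Rpl38 and Rps29 are uncertain.

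Protein care and redox genes gave mixed directions. Added chaperone genes were 4 of 24 listed (16.7%, beside 15.1% of all listed genes), 3 of them higher, although 18 of the 24 were lower. Hspa2 was at 2.71-fold, Creld2, an endoplasmic reticulum protein, at 2.14-fold and Hsp90aa1 at 2.01-fold, and Cryab, the small heat shock protein that protects desmin and titin in muscle, at 0.5 in the authors' deposited table. The proteasome list, lower in 15 of 15 listed genes, gained Psma1 at 0.473 and Psmd6 at 0.48 (adjusted p = 1.23e-18 for the second) in the authors' deposited table. In the antioxidant list 4 of 33 were added (12.1%). Txnrd1 was at 0.49, Akr7a2, an aldehyde reductase, at 0.451 and the peroxidase Prdx2 at 0.5, while the glutathione transferase Gstt3 was at 3.23-fold in the authors' deposited table.

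Hormone-related genes added 5 of 35 (14.3%, beside 15.1% of all listed genes). Tsc22d3, the glucocorticoid-induced leucine zipper, was at 2.14-fold (adjusted p = 1.76e-13) and the orphan receptor gene Nr4a2 at 2.33-fold (4.44e-08) in the authors' deposited table. Handling of retinoic acid was represented by Cyp26b1, which degrades it, at 2.2-fold and by Stra6, a retinol transporter, at 4.26-fold with an adjusted p of 0.0205 in the same table. Ppargc1b, the coactivator PGC-1beta that supports mitochondrial gene transcription, was lower at 0.435 (7.37e-08) in the authors' deposited table.

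Cell type markers, in 14 lists, had 95 listed entries, of which 9 were added genes (9.47%, beside 15.1% overall). Each list had between 2 and 10 listed markers, and 8 lists held no added gene, namely those of cardiomyocytes, atrial myocytes, endothelium, smooth muscle, pericytes, neutrophils, adipocytes and erythroid cells. Nerve and Schwann cell markers had 3 of 6 listed genes added, all higher: the adhesion molecule Ncam1 at 2.06-fold (adjusted p = 0.00061), the Schwann cell transcription factor Sox10 at 2.51-fold (0.000745) and the neurofilament gene Nefm at 4.14-fold (0.0237) in the authors' deposited table. Among 5 listed mesothelial and epicardial markers, 4 were higher than in WKY, and the authors' deposited table had the added Lrrn4 as the lower one, at 0.25 with an adjusted p of 0.0337. Since levels are not part of the tables, the tissue label could not be checked on the abundance of myocyte genes.

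Reference group also mattered for some genes that were in both obese tables. These comparisons share the 6 obese rats, so the values are set side by side as a description. For 235 of the 4847 genes (4.85%) the fold against WKY and the fold against lean were 2 times or more apart, 143 with the greater value against WKY and 92 with the greater value against lean. Tcp11x2 was at 173.6-fold against WKY and 6.45-fold against lean, and Setd4, a lysine methyltransferase gene, at 94.4-fold and 2.95-fold in the authors' deposited tables. Cdh26, a cadherin, was at 69.1 and 5.46, Sez6l at 48.8 and 2.91, and the shared RT1-S2 row at 50.2 and 2.17 there. In the opposite sense, Oscar, an immune receptor of osteoclasts and myeloid cells, was at 2.04-fold against WKY and 21.9-fold against lean, Mcemp1 at 2.68 and 16, Lctl at 2.27 and 12.7, Ly6h at 3.39 and 18.6, the granulocyte growth factor receptor Csf3r at 2.1 and 10.3 and the RNase P RNA gene Rpph1 at 2.48 and 10.1 in the authors' deposited tables. Klhdc8a was lower in both, at 0.065 against WKY and 0.319 against lean. Thbs4, a thrombospondin of stressed myocardium, was at 34.3 against WKY and 8.34 against lean in the authors' deposited tables.

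For 10 genes the direction depended on the reference. In 9 of them obese hearts were higher than WKY and lower than lean, and all 10 were listed for lean against WKY. Plppr4 was at 29.7-fold against WKY and 0.287 against lean, with 17.5-fold in lean against WKY, in the authors' deposited tables. Eno1, the ubiquitous enolase, was at 2.57-fold against WKY, 0.48 against lean and 5.17-fold in lean rats, and Slc4a1, the anion exchanger of red cells, at 2.36, 0.374 and 5.5 there. The other such genes in the authors' deposited tables were Frmpd1 (3.53 against WKY and 0.351 against lean), Pbld1 (3.16 and 0.349), Vwa2 (2.69 and 0.218), Sgms2, a sphingomyelin synthase (2.5 and 0.287), Cnpy1 (4.2 and 0.277) and Pld5 (4.5 and 0.483). Ifi44l, an interferon-induced gene, went the other way, at 0.47 against WKY, 2.24-fold against lean and 0.24 in lean against WKY in the authors' deposited tables. Ephx2, soluble epoxide hydrolase, was lower against lean (0.356) and higher in lean rats than in WKY (3.32-fold) and was not listed for obese against WKY in the authors' deposited tables.

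**Figure D5:**
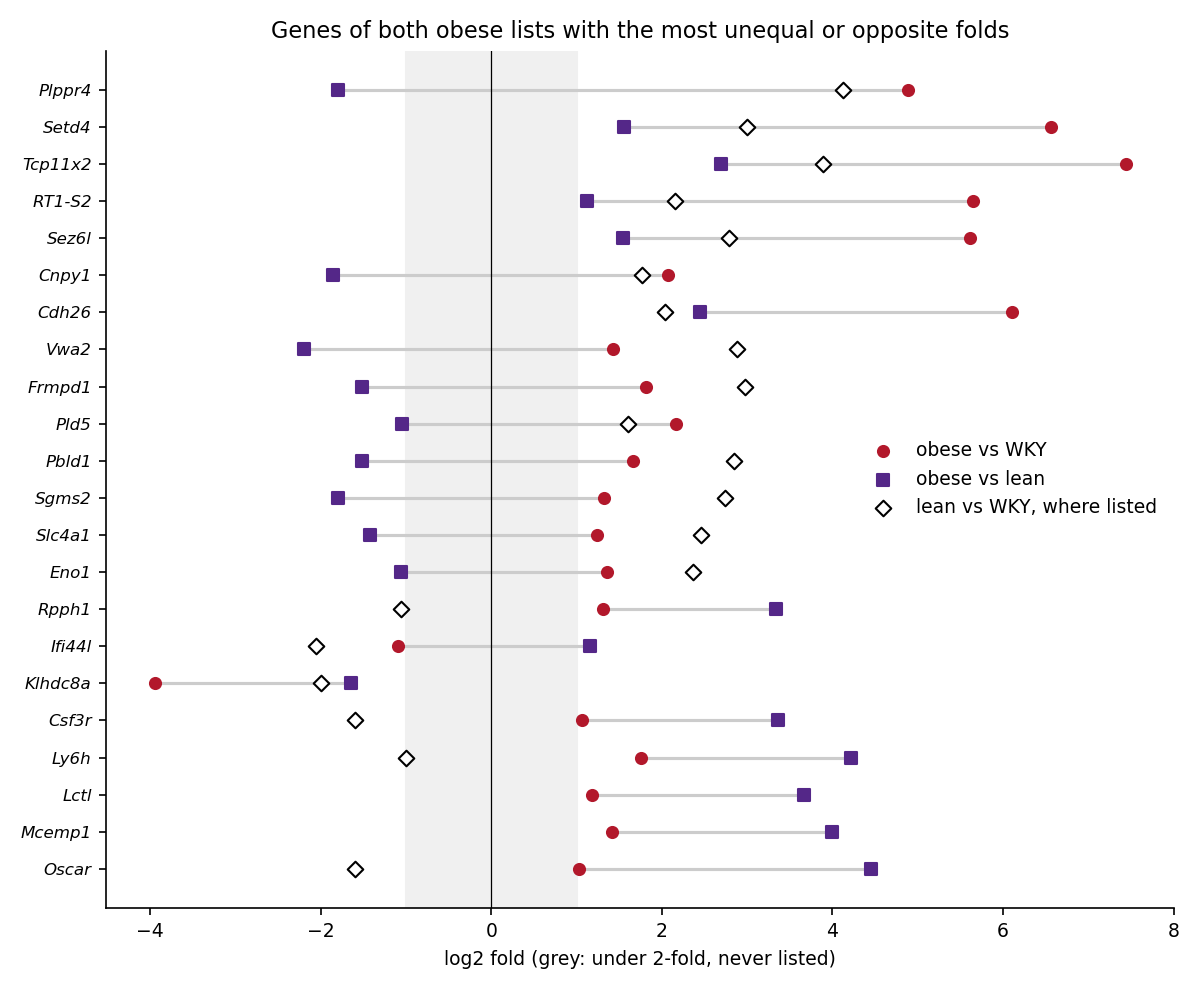
Log2 folds (x axis) of the 8 genes with the greatest and the 8 with the smallest quotient of the fold against WKY to the fold against lean, together with all genes of opposite direction; circles are obese against WKY, squares obese against lean and open diamonds lean against WKY. Squares lie left of zero and circles right of it for 9 genes, Plppr4 and Eno1 among them, and the reverse holds for Ifi44l.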

How the data were processed

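RNA of 18 left ventricles was isolated with a Qiagen RNeasy kit and sequenced as single reads from stranded TruSeq libraries of polyadenylated RNA, per the labels' protocols. Rnor_6.0, HISAT2 2.1.0, HTSeq 0.11.2 and DESeq2 1.22.2 are named in the submitters' processing notes. Settings, strand counting and the covariates of the fit are not stated. A linear fold (a ratio) and a false discovery rate (an adjusted p-value) per gene are the authors' deposited values, per the file headers, and were used as they stand. All rows of the 3 tables had folds of at least 2 or at most 0.5. An adjusted p is given as 0 for 4 genes of obese against WKY. Depth per sample is unknown.

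Genes were matched by Ensembl identifier (Python 3.11.15, pandas 2.3.3, tested on simulated data), and log2 values, counts, medians and quotients were computed from the deposited folds. No test was made, since no values per rat were used. Of the 862 added genes, 795 matched a symbol or synonym in RefSeq (GRCr8). Promoters are RefSeq's. Shares of listed or of RefSeq genes stand in for the unknown number tested. The planned count-based fits and leave-one-out fits were not run for the same reason. Whether the rats of a group were independent in litter, and how libraries were batched, is not stated, and a batch cannot be told apart from the groups.

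The members, the 42 gene lists and the rule for named genes were chosen with earlier results of these data known. The rule, which leaves out predicted and clone names, takes the 12 greatest rises and falls, the 8 rises and 8 falls of smallest adjusted p, genes also listed for lean rats among the 15 smallest, up to 5 genes per list by adjusted p, the 8 greatest and smallest quotients, genes of opposite direction and 15 anchors. Genes named outside it after their values were seen are Ifit3, Trim16, Fbp2, Cyb561, Kcne2, Kcnma1, Scnn1a, Rpl38, Rps29, Eef1b2, Rps3, Rps14, Arntl, Per2 and Per3, and all genes of the closing observations. Some genes that the rule covers are not reported here. Alternatives were a stricter adjusted p or fold, matching by symbol, named genes only, and leaving out genes listed for lean rats.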

Additional observations from a re-analysis of the deposited data

How the results depend on the processing

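The count of 862 added genes, the 64% that were higher and their median folds changed little when the adjusted p had to be under 0.01 (741 genes), when lists were matched by symbol (858), when predicted, unnamed and small noncoding genes were left out (786) or when genes also listed for lean rats were left out (789). Apart from matching by symbol, these settings only removed genes from the 862, while the list of obese against lean kept its own limits. Stricter limits on both lists at once were not run. Asking for a 4-fold change in either direction left 92 of the added genes and 1793 of the 5709 listed against WKY. Of those 92, 82.6% were higher, the medians were 5.1 and 0.206 by construction, and 36 of the 73 also listed for lean rats were left. The 15 gene lists with at least 4 added genes kept counts within 1.5 times when matched by symbol, with named genes and without genes of the lean list. Under the stricter adjusted p, 13 did so, and 2 did not: the matrix list went from 5 to 3 and antigen presentation from 4 to 2. No list kept its count at the stricter fold, so the functional groups consist mostly of changes under 4-fold. No paired analysis was possible because the groups share no replicate numbers. Leaving out single rats, other normalizations and low-count filters were not run, since no values per rat were used, and depth sets no stated limit because it is unknown.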

Other observations

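Some groups outside the lists were noticed among the 862 added genes, and their members were chosen after their values were seen, so they are descriptions. Proteins normally made by the liver were among the rises: besides Apoc3, the authors' deposited table gave Ftcd, an enzyme of histidine breakdown, 5.13-fold (adjusted p = 0.00616), Gc, the vitamin D binding protein, 5.1-fold (0.0193), the urea cycle enzyme Otc 3.71-fold (0.0274), Apoa1, the main protein of HDL, 3.63-fold (0.0188) and Shbg 2.59-fold (0.000358). The adjusted p values of all 6, Apoc3 (7.60e-05) included, lie closer to the limit than the median of the added genes, 2.05e-07. The mast cell genes Cpa3, a granule carboxypeptidase, and Ms4a2, a subunit of the IgE receptor, were at 2.89-fold (0.00173) and 2.95-fold (0.0258) in the authors' deposited table.

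Semaphorins, guidance proteins that also act on vessels, were higher in 4 added rows of the authors' deposited table: Sema3e at 4.08-fold, Sema4a at 2.59-fold, Sema3g at 2.57-fold (adjusted p = 2.56e-29) and Sema3f at 2.33-fold (6.26e-25). Subunits of the COP9 signalosome, which removes NEDD8 from cullin ligases, were lower there, Cops2 at 0.467 (6.01e-23), Cops3 at 0.493 (3.14e-15) and Cops7a at 0.5 (1.58e-21). Gch1, which makes the nitric oxide synthase cofactor tetrahydrobiopterin, and Gchfr, its feedback regulator, were both higher in the authors' deposited table, at 2.51-fold (7.57e-18) and 2.1-fold (7.02e-06).

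In RefSeq's order of protein-coding genes, which places 793 of the added genes, 42 pairs of added genes were next to each other. Their directions were the same in 26 pairs, 20 of them higher and 6 lower, and opposite in 16. Higher pairs in the authors' deposited table included Cyb561 and Ace, Apoa1 and Apoc3, Tap2 and Psmb8, Adamts15 (2.11-fold) and Adamts8 (3.36-fold), and the metallothioneins Mt2A (3.34-fold) and Mt3 (3.71-fold). Metap1 (0.497) and Eif4e (0.441) were a lower pair there, and Iffo1 (2.03-fold) and Gapdh (0.429) an opposite pair. Of all 862 added genes, 64% were higher and 36% lower. How often neighbours would share a direction otherwise was not tested.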
